A study of Homo sapiens with 15 samples.

Results

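RNA-seq of THP-1 cells was used to compare *S. aureus* bacterial extracellular vesicles (BEVs) isolated by precipitation with ϵ-poly-L-lysine (PL) with the same kind of vesicles isolated by ultracentrifugation (UC). The comparison rests on 6 of the 15 libraries of the series, chosen by their labels: 3 libraries of cells given PL BEVs (SPL) and 3 of cells given UC BEVs (SUC). THP-1 is a human leukaemia line of monocytic cells, labelled wild type. Both groups received BEVs at 10 μg/mL of vesicle protein. The cells were incubated for 6 h by the published methods, where the labels give Day 0. Beside them stand 3 libraries of cells with PBS (NC) and 6 of cells given BEVs of *E. coli* at 1 μg/mL, 3 libraries for UC (EUC) and 3 for PL (EPL). The doses were equal by protein mass, so the number of vesicles per cell may differ between SPL and SUC. Cells with ϵ-poly-L-lysine alone were not analysed here, so the vesicles and any polymer that came with them cannot be told apart. For such cells the published study reports no significant difference from PBS in the expression of *IL1B* and *CXCL8*, and it shows no other gene. The comparison asks whether the way of isolating the vesicles alters how the cells respond.

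BEVs are membrane particles that bacteria release, and those of *S. aureus*, a gram-positive species, carry lipoproteins, lipoteichoic acid, nucleic acids and toxins. Monocytes sense such material through Toll-like receptor 2 and its partners at the surface and through nucleic acid sensors inside the cell. The adaptor MyD88 and the factor NF-kappa B then switch on cytokine and chemokine genes, and interferon adds a later set of antiviral genes. UC pellets vesicles by force alone, whereas the cationic polymer binds their negative surface so that they sediment at a lower speed.

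Between 14482563 and 16045415 reads were counted on genes in the 6 libraries, and 17198 genes had enough counts to be tested. SUC3 stood apart from the other 5. Over genes with a mean CPM (reads scaled to a common library size) of at least 10, its median difference from another library, in size on the log2 scale, averaged 0.198, against 0.113 to 0.126 for the others. It was the highest of the 6 in 3486 genes and the lowest in 2667, and 7.28% of its counts fell on ribosomal protein genes, against 5.27% to 6.01% in the rest. The median difference between libraries was 0.0874 to 0.103 within SPL, 0.107 to 0.225 within SUC and 0.0886 to 0.213 between the groups, so that the pairs across the methods and the pairs within SUC covered nearly the same range. The shares of mitochondrial, ribosomal protein and lncRNA counts, the number of genes detected and the total overlapped between SPL and SUC (exact permutation tests, two-sided, p of 0.5 to 0.8, where 0.1 is the smallest that 3 against 3 can give). Of 23 monocyte and macrophage markers 21 were tested, and *CD68* and *FCN1* did not pass the filter on low counts. *CD3D*, *CD3E*, *CD3G* and *CD2* of T cells and *IGHM* and *JCHAIN* of B cells had no count in any of the 6. The summed CPM of 12 T and NK cell markers was 25.3 to 29.2 in SUC and 29.7 to 30.8 in SPL, that of 8 B cell markers 12.3 to 20 and 16.8 to 21.2, and that of 12 epithelial and fibroblast markers 205 to 242 and 240 to 254, and no tested marker of these 3 lists had an unadjusted p of at most 0.05. Their part in the results was not tested.

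A gene was called when the quasi-likelihood test of edgeR gave it an adjusted p (Benjamini-Hochberg) not above 0.01 and its log2 fold change was 1 or more in size. By this rule 1 gene was higher in SPL (0.00581% of those tested) and 0 were lower (0%). The gene was *PLIN2*, which codes for perilipin 2, the protein that coats lipid droplets in most cells. At an adjusted p of at most 0.05 without a fold limit, 3 genes were higher (0.0174%), *PLIN2*, *PDK4* and *THBS1*, and 0 were lower (0%). Among genes lower in SPL the smallest adjusted p was 0.523 in edgeR. Before adjustment, 533 genes higher in SPL (3.1%) and 467 lower (2.72%) had a p not above 0.05, which is called a nominal difference from here on. All 3 SPL libraries lay above all 3 SUC libraries in 1181 genes (6.87%) and below them in 1023 (5.95%). Without SUC3, 412 genes were nominally higher and 344 nominally lower. The p-values measure the spread between these libraries, since no source states whether the triplicates came from separate cultures.

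Most genes differed little between the methods. The log2 fold change of SPL minus SUC had a median of -0.01, with quartiles of -0.131 and 0.13, and it was under 0.5 in size for 91.3% of them. Of 274 genes with a change of at least 1 in size, *PLIN2* alone had a mean CPM of at least 10.

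**Figure D1:**
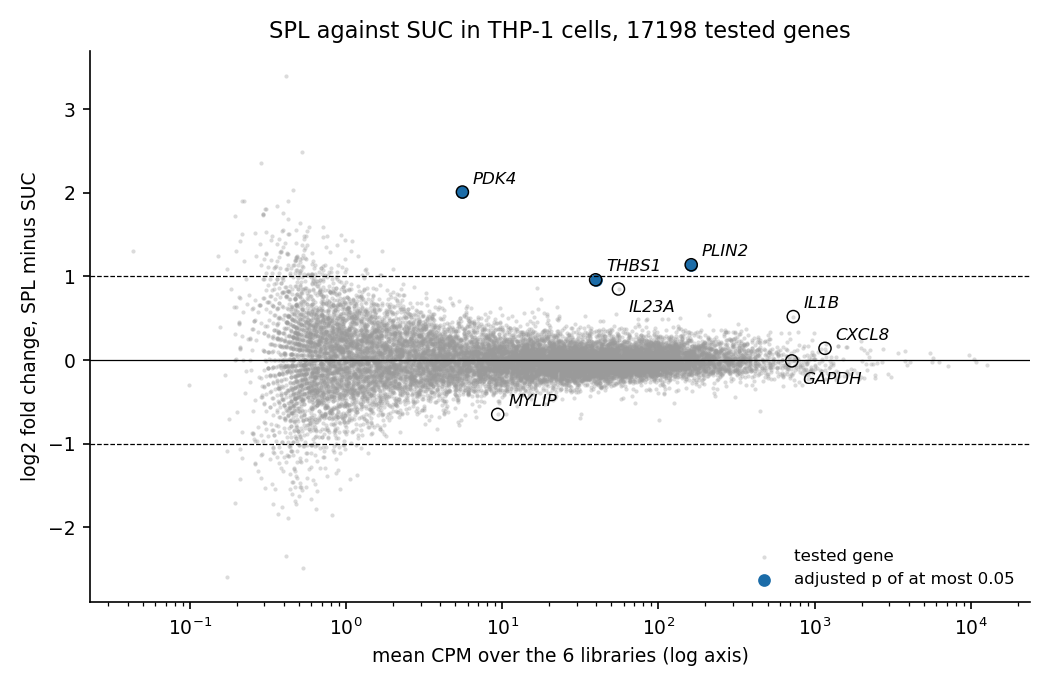
Log2 fold change of SPL minus SUC (vertical axis) against the mean CPM over the 6 libraries (horizontal log axis) for the 17198 tested genes. Blue points are the 3 genes with an adjusted p of at most 0.05, black rings mark 8 genes named in the text, and dashed lines stand at a change of 1 in size. Beyond the lines lie mainly genes of low CPM, with *PLIN2* at 1.14 as the exception above a CPM of 10.

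The stretches just upstream of the 3 genes that were higher in SPL at an adjusted p of 0.05 are shown because these genes passed a threshold adjusted over all genes. Each run is the 250 bases before the gene's start in RefSeq (GRCh38.p14), 5′ to 3′ on the strand of the gene, at chr9:19127493-19127742 (minus strand) for *PLIN2*, chr7:95596517-95596766 (minus strand) for *PDK4* and chr15:39580829-39581078 (plus strand) for *THBS1*. Capitals mark letters that match a searched motif on either strand.
PLIN2: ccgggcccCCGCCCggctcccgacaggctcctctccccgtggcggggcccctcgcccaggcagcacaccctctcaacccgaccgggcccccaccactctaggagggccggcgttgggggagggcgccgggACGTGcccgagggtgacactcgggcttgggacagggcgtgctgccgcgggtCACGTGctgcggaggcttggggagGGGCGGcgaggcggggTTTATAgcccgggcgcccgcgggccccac
PDK4: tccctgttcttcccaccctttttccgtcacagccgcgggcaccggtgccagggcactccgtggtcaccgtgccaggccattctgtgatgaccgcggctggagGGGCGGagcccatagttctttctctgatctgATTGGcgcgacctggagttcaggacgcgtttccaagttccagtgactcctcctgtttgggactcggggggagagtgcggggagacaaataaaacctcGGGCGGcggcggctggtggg
THBS1: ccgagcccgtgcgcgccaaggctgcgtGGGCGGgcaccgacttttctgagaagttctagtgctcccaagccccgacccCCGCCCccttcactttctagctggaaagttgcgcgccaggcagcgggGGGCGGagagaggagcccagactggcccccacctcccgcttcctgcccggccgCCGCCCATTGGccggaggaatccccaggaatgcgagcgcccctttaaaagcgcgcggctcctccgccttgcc
The motifs were the hexamer bound by PPAR receptors (AGGTCA), its direct repeat with 1 base between (AGGTCANAGGTCA), the core of the hypoxia response element (ACGTG), the AP-1 site (TGANTCA), the GC box (GGGCGG), the TATA box (TATAAA) and the CCAAT box (CCAAT). In *PLIN2* the hypoxia core matched from -120 to -116 and, on both strands of the palindrome CACGTG, from -69 to -65 and -68 to -64, counted back from the start. *PLIN2* also had GC boxes from -242 to -237 and -45 to -40 and a TATA box from -29 to -24. *PDK4* had GC boxes from -148 to -143 and -20 to -15 and a CCAAT box from -117 to -113. *THBS1* had 4 GC boxes and a CCAAT box from -66 to -62. Of 35114 promoters of this length, 18.5% held the hypoxia core, 42.6% the GC box, 10.7% the TATA box, 32% the CCAAT box, 12.1% the PPAR hexamer, 0.0171% its repeat and 6.57% the AP-1 site. The hexamer, its repeat and the AP-1 site have no match in these 3 windows. A match describes letters only and names no factor that acts there. The GENCODE span of *PLIN2* reaches farther upstream than its RefSeq start, so other transcripts may begin outside this window.

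*PLIN2* (chromosome 9, 19108375 to 19149290, GENCODE release 44 on hg38) had a CPM of 104, 84.4 and 115 in the SUC libraries and 250, 216 and 203 in the SPL libraries, with 47.3, 50.3 and 51.4 in cells with PBS. All SPL libraries lay above all SUC libraries, and these above all NC libraries. SPL was 2.21-fold higher than SUC (95% interval 1.86 to 2.62; log2 fold change 1.14, SE 0.118, adjusted p = 0.000578 in edgeR). Against PBS the fold was 2.03 in SUC (adjusted p = 3.42e-06 in edgeR) and 4.49 in SPL (adjusted p = 2.5e-10), and both comparisons share the NC libraries. *PLIN2* was called under all 12 alternatives, among them the loss of any 1 of the 6 libraries (1.24 without SUC3), at a log2 fold change of 1.03 to 1.24 and an adjusted p of at most 0.00741 in edgeR or DESeq2.

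*PDK4* (chromosome 7, 95583499 to 95596516) codes for pyruvate dehydrogenase kinase 4, which slows the entry of pyruvate into the citric acid cycle and favours fatty acids as fuel. Its CPM was 2.12, 2.0 and 2.51 in SUC and 10.5, 7.34 and 8.89 in SPL, from 31 to 38 reads and 114 to 164 reads per library. The groups did not overlap, and cells with PBS had 0.832, 1.47 and 1.49, below both. Against PBS the fold was 1.73 in SUC (adjusted p = 0.0704 in edgeR) and 6.97 in SPL (adjusted p = 6.83e-07). The fold between SPL and SUC was 4.02 (95% interval 2.7 to 6.0; log2 fold change 2.01, SE 0.273, adjusted p = 0.0121 in edgeR). Its adjusted p in edgeR passed 0.05 when SUC1 (0.0515), SUC2 (0.211), SPL1 (0.211) or SPL3 (0.0832) was left out, and was 0.0458 without SUC3, while the log2 fold change stayed between 1.87 and 2.13. *PDK4* was called by DESeq2, with the 6 libraries fitted alone and without a filter on low counts, and over the 12 alternatives its adjusted p ranged from 1.57e-10 to 0.211.

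*THBS1* (chromosome 15, 39581079 to 39599466) codes for thrombospondin 1, a secreted matrix protein that can activate TGF-beta. Its CPM was 33.8, 24.1 and 22.8 in SUC and 59.1, 48.3 and 49.6 in SPL, against 0.704, 0.529 and 0.656 in cells with PBS. The lowest SPL library was well above the highest SUC library, and both groups were far above PBS. The fold between SPL and SUC was 1.95 (95% interval 1.59 to 2.39; log2 fold change 0.96, SE 0.140, adjusted p = 0.0194 in edgeR). Its adjusted p was 0.0676 with library totals as the scaling, 0.0677 in the fit of the 6 libraries alone, 0.00271 without SUC1 and 0.0582 to 0.23 without any other of the 6 (0.15 without SUC3, at a log2 fold change of 0.86), and it ranged from 2.54e-11 to 0.23 over the 12 alternatives. Exons of *FSIP1* and *THBS1-AS1* overlap it on the other strand, as exons of other genes do for *IL6*, *GAPDH*, *HOXA13* and *TERT*, and the strand setting of the counting is not given in the sources used here.

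**Figure D2:**
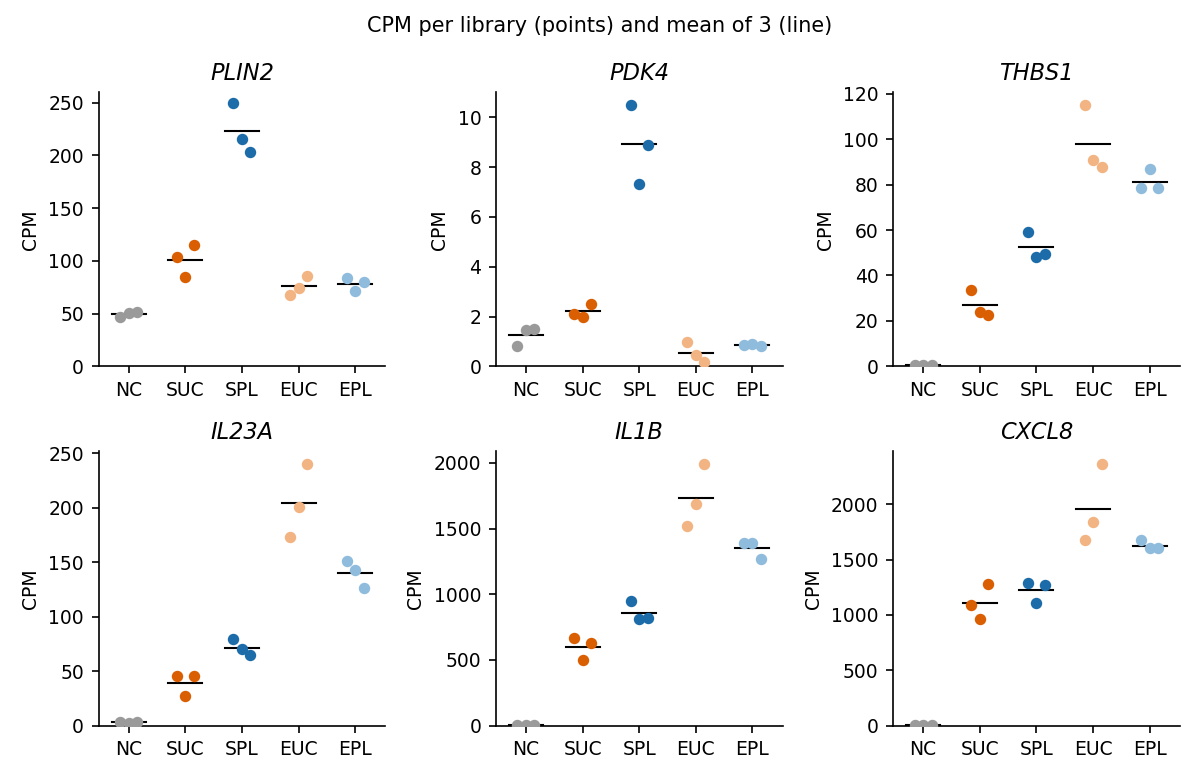
CPM (vertical axes, from 0) of 6 genes in each library of NC, SUC, SPL, EUC and EPL, with a line at the mean of the 3 libraries. *PLIN2* stands at 203 to 250 in SPL and at 84.4 to 115 in SUC, and the SPL points of *PDK4* lie above all its others, while the SPL and SUC points of *CXCL8* overlap.

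Genes of fatty acid use and storage were described with 2 lists chosen with *PLIN2* and *PDK4* already known, so that these 2 say nothing about either list. Of 22 tested targets of the PPAR receptors, nuclear receptors that fatty acids activate, 5 were nominally higher in SPL and 1 was nominally lower, beside 3.1% and 2.72% of all genes. The 5 hold *PLIN2* and *PDK4*, known when the list was chosen, so their number cannot be weighed against the 3.1%. The median log2 fold change of the list was 0.019, close to the -0.01 of all genes, and 0.103 without SUC3. Beside *PLIN2* and *PDK4*, the higher ones were *CPT1A* and *SLC25A20*, which bring fatty acids into mitochondria, and *ACADVL*, which oxidises very long chains. *CPT1A* had a mean CPM of 115 in SUC and 152 in SPL (log2 fold change 0.41, 95% interval 0.18 to 0.63), and *SLC25A20* 24.2 and 31.6 (0.38, 0.13 to 0.64). *ACADM*, the dehydrogenase of medium chains, was the lower one, with a CPM of 73.4, 76.9 and 84.3 in SUC and 53.8, 61.4 and 58.7 in SPL. Its libraries did not overlap, and its adjusted p was 0.727 in edgeR. *ANGPTL4*, another PPAR target, was measured at a mean CPM of 0.509 and 0.87 with an interval of -0.31 to 1.87.

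The list of 26 tested genes of lipid droplet coats and turnover had a median of 0.045. Of these genes 4 differed nominally, all higher in SPL, beside 3.1% of all genes higher and 2.72% lower. They were *PLIN2*, *MGLL*, the lipase of monoglycerides, *GPAT3*, an enzyme of triglyceride synthesis, and *ACSL1*, which activates fatty acids. Since *PLIN2* is among the 4, their number cannot be weighed against the 3.1% either. *MGLL* had a mean CPM of 70.4 in SUC and 99.0 in SPL (log2 fold change 0.49, 95% interval 0.21 to 0.77), *GPAT3* 16.5 and 20.5 (0.31, 0.08 to 0.54) and *ACSL1* 615 and 713 (0.21, 0.04 to 0.38). The other coat genes were close to 0, *PLIN3* at -0.07 (-0.24 to 0.1) and *PLIN4* and *PLIN5* with wider intervals. *HILPDA*, an inhibitor of the triglyceride lipase, was at 4.71, 4.94 and 7.20 in SUC and 4.15, 4.38 and 4.62 in SPL, with a log2 fold change of -0.36 (-0.83 to 0.12).

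Cholesterol genes showed no called change. In the list of 13 targets of LXR, the nuclear receptor that senses oxysterols, and related efflux genes the median was -0.163, with 3 of 13 above 0. Nominally lower were *MYLIP* and *SREBF1*, and 1 member was nominally higher, beside 2.72% and 3.1% of all genes. *MYLIP*, a ubiquitin ligase, had a CPM of 11.2, 12.5 and 10.6 in SUC and 7.28, 6.63 and 8.0 in SPL. All SPL libraries lay below all SUC libraries (log2 fold change -0.65, 95% interval -0.95 to -0.34, adjusted p = 0.523 in edgeR). Its adjusted p was 0.0484 without the filter on low counts, the lowest over the 12 alternatives, and 0.999 at the highest. *SREBF1* was at a log2 fold change of -0.30 (-0.54 to -0.05) and the cholesterol exporter *ABCA1* at -0.36 (-0.81 to 0.09). The median of 23 tested genes of cholesterol synthesis and uptake was 0.02. *INSIG1*, which holds back the sterol-sensing machinery, had a CPM of 67.2, 64.6 and 73.9 in SUC and 83.5, 81.1 and 98.9 in SPL, without overlap (log2 fold change 0.36, 0.13 to 0.58). *DHCR7*, a reductase late in the synthesis of cholesterol, was at 0.27 (0.01 to 0.53).

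No cytokine gene had an adjusted p of at most 0.05 in the edgeR fit of all 15 libraries, and *IL23A* and *IL1B* were nominally higher in SPL. *IL23A*, a subunit of interleukin 23, had a CPM of 45.4, 27.2 and 45.9 in SUC and 79.2, 70.1 and 64.9 in SPL. Its groups did not overlap, and its log2 fold change of 0.85 (95% interval 0.50 to 1.21) had an adjusted p of 0.451 in edgeR and 0.0077 in DESeq2, and of 5.84e-10 to 0.998 over the 12 alternatives. *IL1B* was at 666, 498 and 633 in SUC and 950, 810 and 818 in SPL, again without overlap (log2 fold change 0.52, 0.25 to 0.79, adjusted p = 0.718 in edgeR). Of 29 tested interleukins and other cytokines 6 differed nominally, all higher in SPL, beside 3.1% of all genes higher and 2.72% lower. *IL23A*, among the 6, was known when the list was chosen. Against PBS, the mean of SPL and SUC was called higher in 21 of the 29. Of all 1319 genes called higher in this way, 17.4% were nominally higher in SPL, and their median was 0.167. The median of the list was 0.097, and it was 0.038 without SPL1, 0.173 without SPL2, 0.165 without SPL3 and 0.16 without SUC3. The other 4 of the 6 cytokines were *IL1A* at 0.44 (0.11 to 0.78), *OSM* at 0.57 (0.11 to 1.02), *EBI3* at 0.36 (0.06 to 0.66) and *CSF3*, for which the SUC libraries held 3, 0 and 1 reads and the SPL libraries 5, 4 and 7. *TNF* had a mean CPM of 352 in SUC and 313 in SPL, with an interval of -0.42 to 0.08. *IL6* rested on 7 to 15 reads per library and an interval of the fold from 0.586 to 2.43, so that a 1.5-fold difference in either direction was not detectable at this depth. Interferon beta (*IFNB1*) had a mean CPM of 0.669 in SUC and 0.237 in SPL and a log2 fold change of -1.46 (-3.05 to 0.13).

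Of 25 tested chemokines 22 had a log2 fold change above 0, with a median of 0.327, the largest of the 28 lists, and 6 differed nominally, all higher in SPL. Of all genes, 47.8% were above 0 and 3.1% nominally higher. Against PBS, the mean of SPL and SUC was called higher in 21 of the 25. All 1319 genes called higher in this way had a median of 0.167, with 77.8% above 0 and 17.4% nominally higher. Between EPL and EUC, which share no library with SPL and SUC, the median of the 25 chemokines was -0.212. *CCL8*, which attracts monocytes, had a CPM of 16.3, 10.4 and 13.5 in SUC and 25.6, 20.1 and 21.0 in SPL. Its groups did not overlap (log2 fold change 0.74, 95% interval 0.38 to 1.09, adjusted p = 0.667 in edgeR), and it had no count in cells with PBS. *CXCL12* was at 0.53 (0.18 to 0.88), *CCL24* at 0.50 (0.11 to 0.88), *CXCL1*, *CCL2* and *CXCL2* at 0.36, 0.34 and 0.31. *CXCL8*, which codes for the neutrophil attractant IL-8, was at 1090, 959 and 1280 in SUC and 1290, 1110 and 1270 in SPL. These libraries overlapped, and the interval of the log2 fold change, -0.12 to 0.39, does not reach a 2-fold difference. *CXCL10* and *CCL20* were at 0.02 and 0.00. Without SUC3, the library that stood apart, the median of the chemokines was 0.419 and 10 of the 25 were nominally higher, beside 2.4% of all genes. Without SUC2 their median was 0.173, the lowest over the 12 alternatives.

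Interferon-stimulated genes showed small differences in 1 direction. Of 41 tested, 39 had a log2 fold change above 0, beside 47.8% of all genes, and 10 differed nominally, all higher in SPL, beside 3.1% of all genes. Their median was 0.178 with and without SUC3, where 7 were nominally higher, and 0.117 without SUC2. Against PBS, the mean of SPL and SUC was called higher in 39 of the 41. All 1319 genes called higher in this way had a median of 0.167, with 77.8% above 0 and 17.4% nominally higher. Whether the list differs from these 1319 genes was not tested. *MX2*, which blocks viral nuclear import, was at 287, 224 and 206 in SUC and 323, 299 and 285 in SPL, with a single SUC library above the lowest SPL library. *IFIT3*, which binds viral RNA, was at 172, 129 and 152 in SUC and 193, 185 and 179 in SPL, without overlap. Their log2 fold changes of 0.34 and 0.30 had adjusted p-values of 0.755 and 0.738 in edgeR. The others of the 10 were *MX1*, *OAS1*, *OAS2*, *OASL*, *HERC6*, *STAT2*, *GBP5* and *TRIM22*, between 0.21 and 0.31. *ISG15*, *IFI6*, *GBP1* and *GBP2* lay between -0.02 and 0.07. Of 18 STAT factors, SOCS inhibitors and their targets, whose median was 0.117, 5 were nominally higher in SPL, beside 3.1% of all genes. They included *SOCS3*, which damps cytokine receptors, at 0.38 (0.13 to 0.62), *STAT5A* at 0.29 (0.10 to 0.48) and the kinase *PIM2* at 0.30 (0.11 to 0.48).

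*TLR2*, the main surface receptor for gram-positive lipoproteins, had a mean CPM of 125 in SUC and 123 in SPL, with a log2 fold change of -0.03 (95% interval -0.2 to 0.14). *TLR1*, its partner for bacterial lipoproteins, was at 6.92 and 9.31 (0.43, 0.06 to 0.80) and *TLR6*, the other partner, at 11.7 and 14.5 (0.31, -0.05 to 0.67). *MYD88* was at 152, 141 and 131 in SUC and 168, 172 and 151 in SPL, which overlap narrowly. Of the 22 tested receptors and adaptors, 2 were nominally higher (*TLR1* and *MYD88*), beside 3.1% of all genes, and the median was 0.052. Without SUC3, 0 were nominally higher and the median was 0.02. Of 23 NF-kappa B subunits, inhibitors and brakes 2 were nominally higher, *TRAF1* at 0.47 (0.15 to 0.78) and *NFKB2* at 0.21 (0.01 to 0.41). The median of these 23 was 0.103. The inhibitor *NFKBIA* was at -0.04 (-0.30 to 0.22), and the intervals of all 23 lay within 1 of 0.

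**Figure D3:**
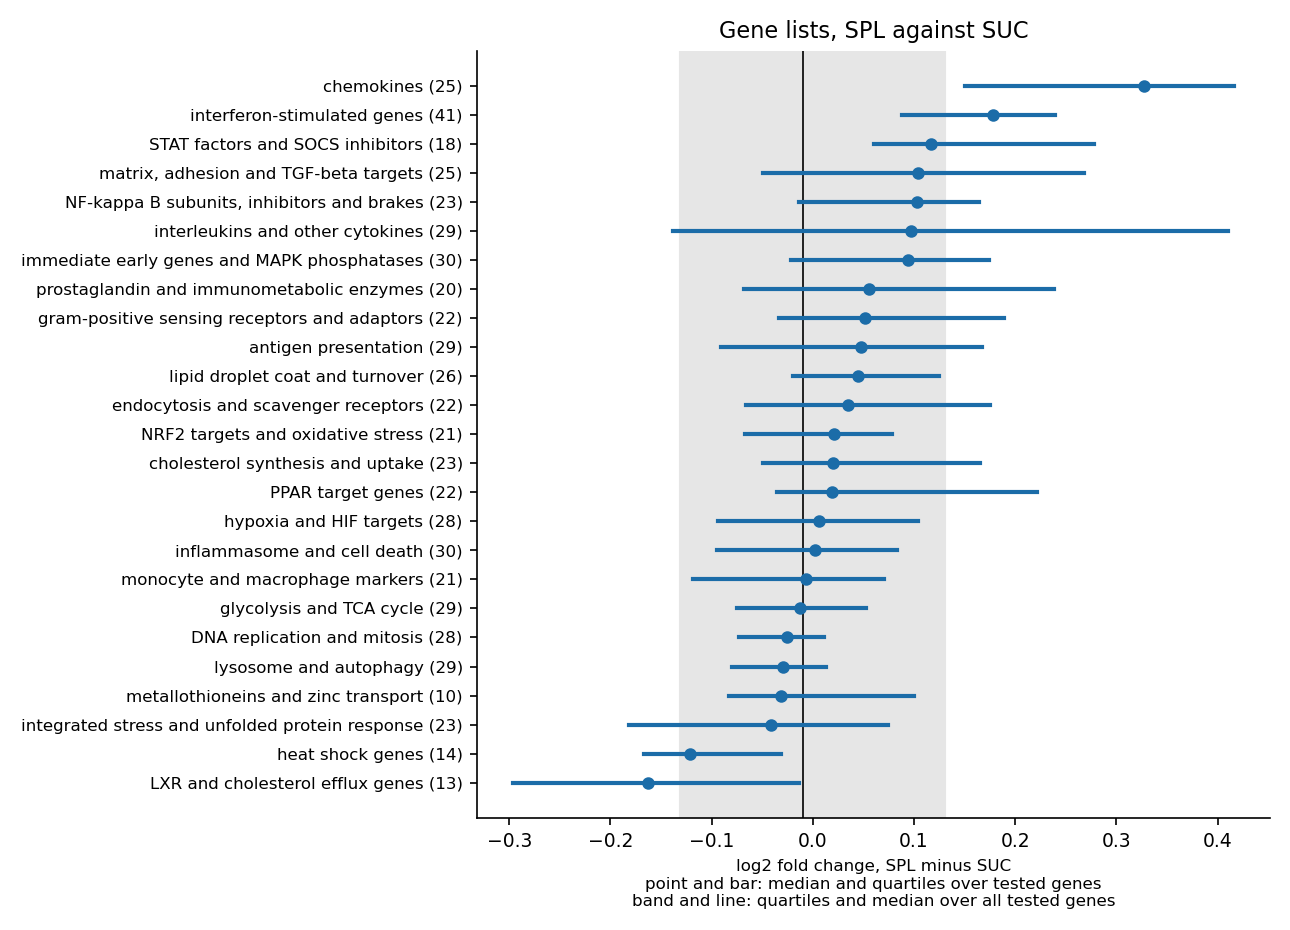
Median (point) and quartiles (bar) of the log2 fold change of SPL minus SUC over the tested genes of 25 lists, with the number of tested genes in brackets. The grey band and the line give the quartiles and the median of all tested genes, -0.131, 0.13 and -0.01, and the chemokine list at 0.327 and the interferon-stimulated genes at 0.178 have their medians beyond the band to the right and the LXR list at -0.163 to the left.

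Of the stress and signalling genes, *ATF3* and *NR4A2* had the largest log2 fold changes. The counts per list below stand beside 3.1% of all genes nominally higher and 2.72% nominally lower. *ATF3*, a factor that many stresses and Toll-like receptors induce, was at 51.1, 38.7 and 40.9 in SUC and 70.3, 61.7 and 59.4 in SPL, without overlap (log2 fold change 0.55, 95% interval 0.31 to 0.79, adjusted p = 0.523 in edgeR). In its list of 23 genes of the integrated stress and unfolded protein response it was the only one nominally higher in SPL, and *PSAT1*, *VLDLR* and *DNAJB9* were nominally lower. The median of that list was -0.041 with all libraries and 0.043 without SUC3. In the 14 heat shock genes the median was -0.121 with 2 above 0, and *HSPH1* was at 302, 313 and 305 in SUC and 274, 272 and 271 in SPL, a log2 fold change of -0.17 (-0.32 to -0.02). *NR4A2*, an immediate early nuclear receptor, was at 7.38, 7.87 and 7.59 in SUC and 14.9, 10.5 and 9.72 in SPL (0.62, 0.16 to 1.09), in a list of 30 where 3 differed nominally and the median was 0.094. Among 28 hypoxia targets 2 did so (*PFKFB3* and *SLC2A1*), with a median of 0.006. None of 21 NRF2 targets and none of 10 metallothionein and zinc transport genes did, with medians of 0.021 and -0.031 that were 0.073 and 0.088 without SUC3.

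In the list of 25 matrix, adhesion and TGF-beta target genes the median was 0.104. Nominally lower in SPL was 1 gene and nominally higher were 4, beside 2.72% and 3.1% of all genes. Beside *THBS1*, which was known when the list was chosen, these were the proteases *MMP9* at 0.44 (0.07 to 0.80), *MMP19* at 0.30 (0.05 to 0.55) and *PLAU* at 0.33 (0.07 to 0.60). The lower one, *SERPINB2*, the inhibitor that blocks the product of *PLAU*, was at 1.78, 2.87 and 2.90 in SUC and 1.47, 1.80 and 1.93 in SPL, in overlapping ranges, with exons of an unnamed gene on the same strand, against 30.3, 37.8 and 40.4 in cells with PBS. Of 20 prostaglandin and immunometabolic enzymes, with a median of 0.056, 3 were nominally higher in SPL (*PTGS2*, *TBXAS1* and *KYNU*), beside 3.1% of all genes. *KYNU*, of tryptophan breakdown, was at 150, 130 and 149 in SUC and 178, 163 and 164 in SPL (0.24, 0.03 to 0.44).

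Genes of basic upkeep were close to level. Of all genes, 3.1% were nominally higher in SPL and 2.72% nominally lower. None of 29 glycolysis and citric acid cycle genes and none of 28 genes of DNA replication and mitosis differed nominally, with medians of -0.013 and -0.026, and the interval of each of these 57 genes lay within 1 of 0. *GAPDH* had a CPM of 683, 723 and 745 in SUC and 715, 730 and 685 in SPL, with a log2 fold change of -0.01 (95% interval -0.16 to 0.13). The proliferation marker *MKI67* varied more within a group than between them, from 310 to 620 in SUC and from 519 to 590 in SPL.

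No gene lower in SPL had an adjusted p of at most 0.05 in the edgeR fit of all 15 libraries. By the smallest unadjusted p-value among protein-coding genes without overlap, the leading ones were *MYLIP*, *PPP1R3G*, *HOXA13*, *NUDT3*, *DUSP9*, *BMP8B*, *DHRS9* and *UBE2J1*, with log2 fold changes of -0.65 to -0.33. *DUSP9*, a phosphatase of MAP kinases, was at 16.5, 16.4 and 20.5 in SUC and 13.6, 12.7 and 12.3 in SPL. *BMP8B*, a ligand of the bone morphogenetic family, was at 145, 165 and 139 in SUC and 117, 118 and 115 in SPL, against 604 to 639 in cells with PBS. Exons of *PPIE* overlap *BMP8B* on the other strand, and *NUDT3* shares exons with *RPS10-NUDT3*. The same rule named *RGL1*, *NPIPB11* and *IL10RA* among the genes higher in SPL beside those given above. *IL10RA*, the receptor chain for interleukin 10, was at 208, 155 and 152 in SUC and 267, 242 and 237 in SPL (log2 fold change 0.53, 95% interval 0.28 to 0.79, adjusted p = 0.523 in edgeR). *NPIPB11* belongs to a family of near-identical copies, so its reads may be shared between them.

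Genes that responded to *S. aureus* BEVs differed by a small amount in the direction of the response. Against PBS, the mean of SPL and SUC was higher in 1319 genes (7.67%) and lower in 660 (3.84%) by the rule given above. This choice used the mean of both methods and not their difference. In the 1319 genes the median log2 fold change of SPL minus SUC was 0.167, with quartiles of 0.021 and 0.345, and 77.8% were above 0. Nominally higher in SPL were 17.4% of them and nominally lower 0.758%. In the 660 genes the median was -0.113, with 9.24% nominally lower in SPL and 1.06% nominally higher. The 15219 other genes had a median of -0.018, with 1.95% nominally higher and 2.6% nominally lower. Without SUC3 the medians of the 1319 and the 660 genes were 0.16 and -0.128. Between EPL and EUC the medians of the same 1319 and 660 genes had the opposite signs, at -0.064 and 0.065.

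The median rise of the 1319 genes over the NC mean, on the log2 scale, was 1.9, 1.752 and 1.782 in the SUC libraries and 2.021, 1.98 and 1.972 in the SPL libraries. For the 660 genes the median change was -1.301, -1.254 and -1.341 in SUC and -1.442, -1.37 and -1.44 in SPL. In both sets the SPL libraries lay farther from PBS than every SUC library, and the distance between the groups was small beside the response itself. When the genes were chosen on the *E. coli* BEV libraries, which hold no SPL or SUC library, 1689 rose and 1012 fell. Their median difference between SPL and SUC was 0.164 and -0.104, and 0.153 and -0.118 without SUC3. All these choices share the NC libraries, whose part in the difference of SPL and SUC was not tested.

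**Figure D4:**
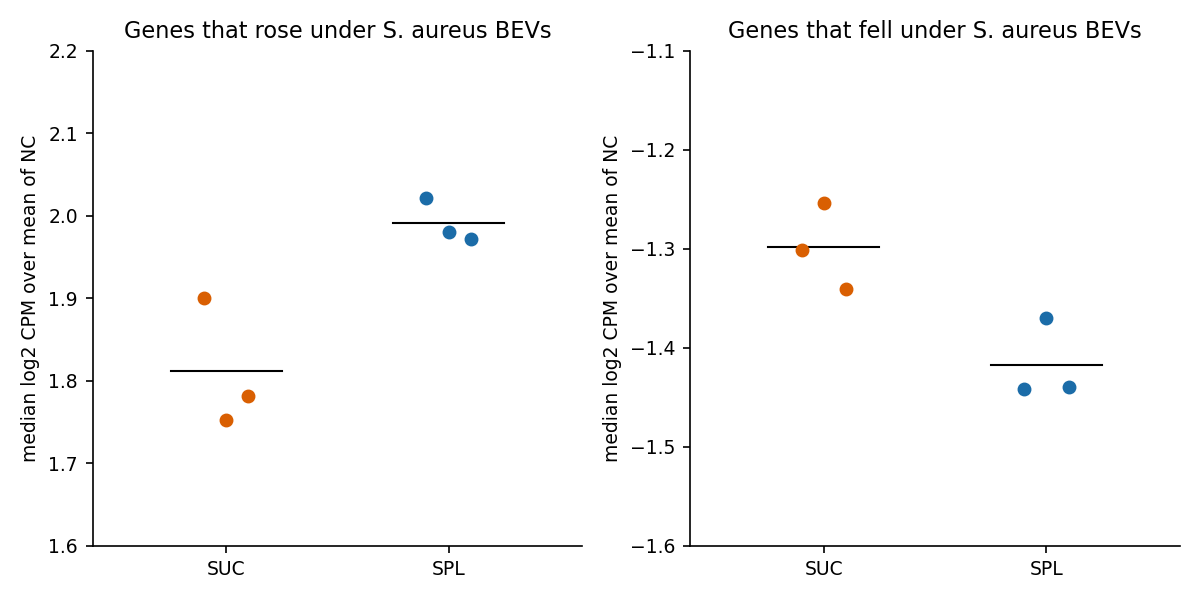
Median log2 CPM over the mean of the NC libraries for the 1319 genes that rose (left) and the 660 that fell (right) under *S. aureus* BEVs, 1 point per library, with a line at the mean of 3. The vertical axes do not start at 0, and the SPL points, 1.972 to 2.021 and -1.442 to -1.37, lie beyond all SUC points.

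By the size of the response among protein-coding genes with counts in PBS cells, the 5 largest rises were those of *CCL4L2*, *CCL4*, *EBI3*, *SLAMF7* and *IL1B*. *CCL4*, which attracts T cells and monocytes, was at 175, 176 and 231 in SUC and 223, 215 and 198 in SPL, in overlapping ranges (log2 fold change 0.13, 95% interval -0.17 to 0.43). Its near-identical copy *CCL4L2* was at 0.10, and reads may be shared between both. *IL1B* at 0.52 (0.25 to 0.79), *EBI3* at 0.36 (0.06 to 0.66) and *SLAMF7* were nominally higher in SPL. *SLAMF7*, a receptor of the SLAM family, was at 221, 160 and 182 in SUC and 236, 217 and 229 in SPL (0.28, 0.07 to 0.48). The 5 largest falls were those of *SERPINB2*, *HAL*, *TERT*, *NFE2* and *GPA33*, with differences between SPL and SUC of -0.54 to 0.21, of which *SERPINB2* at -0.54 (-1.07 to -0.02) was nominally lower in SPL. *TERT*, the catalytic subunit of telomerase, was at 5.74, 3.94 and 2.77 in SUC and 4.6, 3.48 and 3.52 in SPL, against 28.0 to 32.4 in cells with PBS.

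How large a difference could have gone unseen was read from the 95% intervals. The interval lay within a 2-fold difference in either direction for 13321 genes (77.5%) and within a 1.5-fold difference for 9951 (57.9%). For genes with a mean CPM of 10 to 100 these shares were 99.8% and 91.4%, and for those at 100 or more 99.7% and 93.7%. Below a CPM of 1 they fell to 6.17% and 0.0359%, so that in 2789 genes a 2-fold difference was mostly not detectable at this depth.

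The same contrast of PL with UC was available in *E. coli* BEVs, in 6 other libraries at a lower dose, so that species and dose cannot be told apart. Between EPL and EUC 0 genes were called (0%) in edgeR, 604 differed nominally and the smallest adjusted p was 0.947. The difference of SPL minus SUC from EPL minus EUC was called in 0 genes (0%) by edgeR, with 659 at a nominal p and a smallest adjusted p of 0.0717, and in 3 by DESeq2 (*IL23A*, *THBS1* and *PLIN2*). *PLIN2* was at 67.6, 74.0 and 85.9 in EUC and 83.5, 71.2 and 79.8 in EPL. These overlap, and the log2 difference between the contrasts was 1.10 (SE 0.166, adjusted p = 0.0717 in edgeR). *THBS1* was at 115, 91.0 and 87.8 in EUC and 78.4, 87.0 and 78.4 in EPL, with a log2 difference between the contrasts of 1.23 (SE 0.193, adjusted p = 0.0717 in edgeR). *IL23A* was at 173, 201 and 240 in EUC and 151, 143 and 126 in EPL, lower with PL without overlap, and its log2 difference between the contrasts was 1.4 (SE 0.233, adjusted p = 0.0939 in edgeR). *PDK4* was at 0.197 to 0.976 in EUC and 0.812 to 0.892 in EPL, and its log2 difference between the contrasts was 1.36 (SE 0.520).

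**Figure D5:**
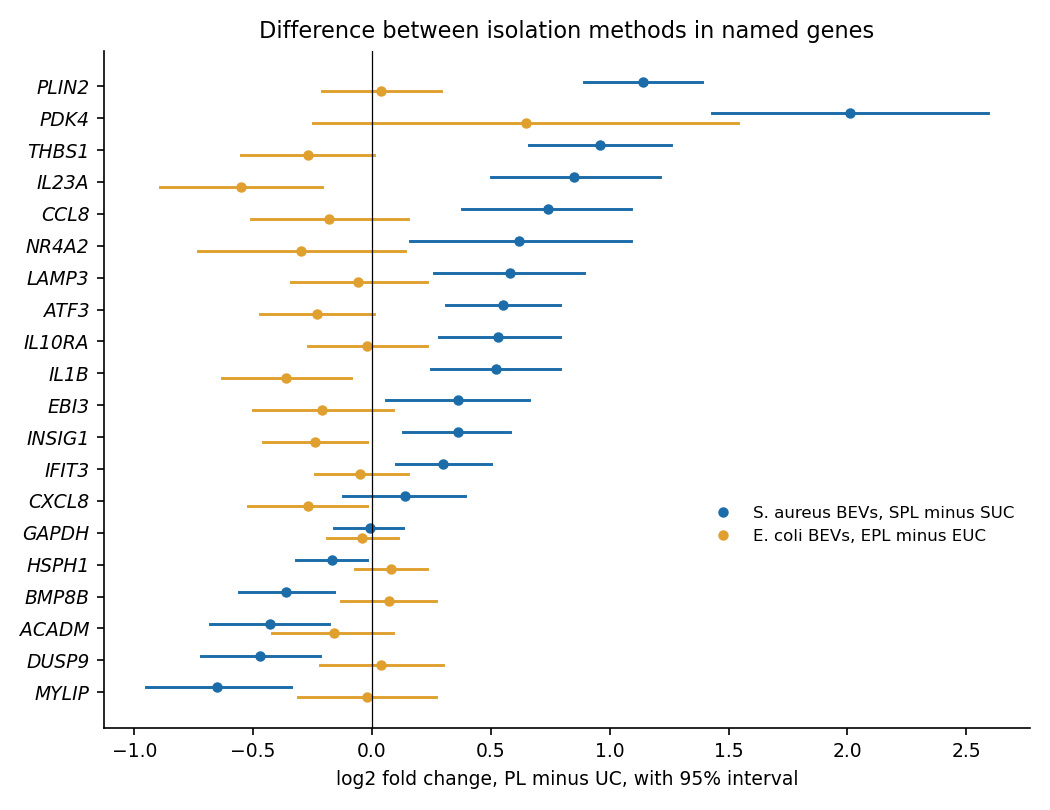
Log2 fold change of PL minus UC with its 95% interval for 20 named genes under *S. aureus* BEVs (blue) and *E. coli* BEVs (yellow). *PLIN2* stands at 1.14 and 0.04, *IL23A* at 0.85 and -0.55 and *GAPDH* at -0.01 and -0.04.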

How the data were processed

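The 15 RNA-seq libraries of THP-1 cells fall into 5 groups of 3 by the titles and treatments in the labels. Per the methods, the authors used Trizol for extraction and the NEB Next Ultra kit for libraries, read both ends and aligned to hg38 with HISAT2 at default parameters. The submitters' processing notes name FastQC 0.11.5, HISAT2 2.1.0, featureCounts, StringTie 1.3.3b and DESeq 1.28.0 without their roles. For the annotation release and strand setting, nothing is stated. The authors deposited whole-number read counts for 60286 Ensembl genes, without normalization, of which 23219 had no count in any library.

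The deposited counts were analysed with edgeR 4.0.16 in R 4.3.3 (filterByExpr, TMM, glmQLFit and glmQLFTest, all 15 libraries, no block), which tested 17198 genes (common biological variation 0.118). CPM of single genes used TMM-normalized library sizes, and the summed CPM of the marker lists used the raw total of all counts. Intervals cover 95%. Alternatives were RLE factors, library totals, no low-count filter, the 6 libraries alone, a replicate block, each library left out, and DESeq2 1.42.0. Genes that responded to *E. coli* BEVs and lists without SUC3 were added after the data were seen. Steps were tested on simulated data.

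The 28 lists and the named genes were chosen with earlier results of these data known. The rule names the qRT-PCR genes of the study (*IL1B*, *IL6*, *CXCL8*, *GAPDH*), *PLIN2*, *PDK4*, *THBS1* and *IL23A*, genes at an adjusted p of at most 0.05, up to 8 genes per direction by unadjusted p without overlap, the leading members of each list, the 5 largest responses each way and the ends of list ranges. Other genes of the lists named in the text were chosen after their values were seen. Promoters are from RefSeq on GRCh38.p14, and positions from GENCODE release 44. Results for some genes are not reported here.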

Additional observations from a re-analysis of the deposited data

How the results depend on the processing

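*PLIN2* was called under every alternative run. The number of genes called higher in SPL was 2 without the low-count filter, with the 6 *S. aureus* BEV libraries alone and with DESeq2 (*PLIN2* and *PDK4* each time), 3 at an adjusted p of at most 0.05 with no fold limit, and 1 to 2 with each library left out (2 without SUC1, *PLIN2* and *THBS1*). The number called lower was 0 under each alternative. At an unadjusted p of at most 0.05, 864 genes were higher and 791 lower without the filter. With each library left out, 305 to 893 were higher and 306 to 725 lower, with 893 and 725 without SUC1 and 305 and 306 without SPL1. The share of intervals within 2-fold was 48.2% without the filter, which adds genes of few counts. The difference between the contrasts of both species was called in 4 genes without the filter, in 3 with DESeq2 and in 0 to 1 with each library left out (*THBS1* without SUC1). The cause of these shifts was not tested. Over the 12 alternatives the lowest adjusted p was 0.000452 for *IL1B*, 0.000457 for *CCL8*, 0.00112 for *IL10RA*, 0.00639 for *ATF3*, 0.0081 for *RGL1* and 0.0484 for *LAMP3* and *MYLIP*, and the highest 0.999 for each. The medians of the genes that rose (0.127 to 0.22) and fell (-0.132 to -0.076) kept their sign under all of these. The medians of 16 of the 28 lists took the opposite sign under none of the 12 alternatives, among them the chemokines (0.173 to 0.419), the interferon-stimulated genes (0.117 to 0.228), the LXR list (-0.171 to -0.095) the heat shock genes (-0.179 to -0.06) and the cytokines (0.038 to 0.173). Over the 12 alternatives, the log2 fold change crossed 0 for *TERT* (-0.32 to 0.20), *NFE2* (-0.16 to 0.14), *GPA33* (-0.06 to 0.47), *CASP5* (-1.22 to 0.18), *GPNMB* (-0.43 to 0.04), *GAPDH* (-0.05 to 0.01), *IL6* (-0.13 to 0.43) and *GBP2* (-0.05 to 0.01), none of them past a threshold. The deviations of same-numbered SUC and SPL libraries correlated at 0.332, -0.171 and -0.0356, and those of differently numbered ones at -0.289 to 0.289. With so few pairs, these values cannot settle whether the replicate numbers pair the libraries. With the replicate block 1 gene was called, *PLIN2* at 1.15 (adjusted p = 0.00118 in edgeR), and 640 genes were higher and 514 lower at an unadjusted p of at most 0.05. Depth limits genes under a CPM of 1, and 3 libraries a group limit all p-values.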

Other observations

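Uptake and presentation genes were also near level between the methods. At an unadjusted p of at most 0.05, 3.1% of all genes were higher in SPL and 2.72% lower. Of 22 tested genes of endocytosis and scavenger receptors, *OLR1* and *EHD1* were higher in SPL at an unadjusted p of at most 0.05 and *VLDLR* was lower, and the list had a median log2 fold change of 0.035. *EHD1*, which recycles endosomes to the surface, was at a CPM of 430, 382 and 410 in SUC and 480, 489 and 446 in SPL, without overlap (log2 fold change 0.21, 95% interval 0.06 to 0.36). *OLR1*, a receptor for oxidised LDL, was at 2.05, 1.06 and 1.58 in SUC and 2.30, 2.32 and 2.69 in SPL. In 29 tested genes of antigen presentation 3 were higher at such a p, with a median of 0.048, which was -0.07 without SUC1. *LAMP3*, a marker of mature dendritic cells, was at 15.6, 9.93 and 11.6 in SUC and 20.7, 16.9 and 17.6 in SPL, without overlap (0.58, 0.26 to 0.89).

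Of 30 tested inflammasome and cell death genes, with a median of 0.002, *AIM2* was higher at an unadjusted p of at most 0.05. Of 29 lysosome and autophagy genes 1 was (*ULK1*), with a median of -0.029, beside 3.1% of all genes higher at such a p. Of 21 tested monocyte and macrophage markers, 1 was higher at such a p, *S100A9*, a calcium-binding alarm protein, at 82.8, 69.1 and 94.3 in SUC and 109, 115 and 98.2 in SPL, and the median was -0.007.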
